A study of Mus musculus with 12 samples.

Results

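The genes that release calcium into the cytoplasm of a muscle fibre and return it to store were followed in hindlimb tissue of a mouse model of lymphedema. They were chosen by symbol in a deposited table of 45777 genes, of which 10 are members: Ryr1, Cacna1s, Jph1, Casq1, Atp2a1, Pvalb, Casq2, Atp2a2, Pln and Sln. All 10 were present and all passed the filter on low counts. Per the labels there were 12 libraries in 3 groups of 4. VtA is lymph node transfer together with ABTAA, an antibody that binds angiopoietin 2 and activates the endothelial receptor Tie2. VLNT is lymph node transfer alone, and LE is lymphedema with no transfer named. The labels give neither strain, sex, age, dose nor time, and name no unoperated limb. They do not say whether the 4 libraries of a group came from separate mice, so p-values measure the spread between samples, which may be technical.

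In skeletal muscle an impulse that travels down the transverse tubules is sensed by a calcium channel, whose movement opens a release channel in the sarcoplasmic reticulum. Calcium leaves the store, where it is held by calsequestrin, switches on the contractile filaments, and is pumped back by SERCA ATPases, which small membrane peptides restrain. Fast and slow fibres use different members of the calsequestrin and SERCA families, and fast fibres of rodents also carry the soluble calcium buffer parvalbumin.

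Ryr1, the release channel, Cacna1s, the voltage-sensing subunit of the tubule channel, and Jph1, junctophilin 1, which holds the 2 membranes together, form the release group. Casq1, Atp2a1, which encodes SERCA1, and Pvalb, parvalbumin, are the fast group. Casq2, the slow and cardiac calsequestrin, Atp2a2, which encodes SERCA2, and the pump inhibitors Pln, phospholamban, and Sln, sarcolipin, are the slow group. On the mouse assembly GRCm38.p6, which is the assembly of mm10, Ryr1 spans chr7:29003340-29125179 and Atp2a1 chr7:126445858-126463103. Cacna1s lies at chr1:136052806-136119822, Jph1 at chr1:16942104-17097922 and Casq1 at chr1:172209894-172219895. Pvalb lies at chr15:78191112-78206400, Casq2 at chr3:102086415-102146514 and Atp2a2 at chr5:122453513-122502225. Pln lies at chr10:53337686-53345999 and Sln at chr9:53850251-53853849. All are protein coding.

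Promoter windows were available for 7 of the 10 members, as 300 bases that run from 250 bases before the RefSeq start to 50 bases from it on GRCm38.p6. They were searched on both strands for CAGCTG, an E-box of the kind that myogenic factors bind, and for the MEF2 consensus, and no window held both motifs. CAGCTG was found in 4 of the 7, Cacna1s, Casq1, Atp2a1 and Pln, against 16.3% of 32851 promoter windows of the mouse. The MEF2 consensus was found in 2 of the 7, Pvalb and Casq2, against 3.19% of the same windows. The figures for members count genes, not windows. There were 8 windows, because Pvalb had a second one, chr15:78204188-78204487, with neither motif. The windows below are those of 3 members that varied together across the libraries (Cacna1s, Casq1, Atp2a1) and of the 2 with a MEF2 match, with the match in capitals. A match is a description of letters and no evidence of binding.
Cacna1s, chr1:136052561-136052860, plus strand, CAGCTG in capitals: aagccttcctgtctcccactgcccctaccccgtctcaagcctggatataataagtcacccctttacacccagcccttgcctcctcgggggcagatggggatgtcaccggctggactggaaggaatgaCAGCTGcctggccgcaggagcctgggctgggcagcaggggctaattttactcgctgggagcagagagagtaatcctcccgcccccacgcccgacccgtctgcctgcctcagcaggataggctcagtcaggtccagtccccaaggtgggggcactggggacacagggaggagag
Casq1, chr1:172219846-172220145, minus strand, CAGCTG in capitals: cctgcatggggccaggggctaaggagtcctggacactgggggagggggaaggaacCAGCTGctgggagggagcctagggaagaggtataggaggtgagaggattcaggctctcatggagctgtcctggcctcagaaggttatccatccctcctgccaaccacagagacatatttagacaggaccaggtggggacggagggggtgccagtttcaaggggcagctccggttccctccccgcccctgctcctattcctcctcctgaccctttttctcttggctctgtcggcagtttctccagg
Atp2a1, chr7:126463024-126463323, minus strand, CAGCTG in capitals: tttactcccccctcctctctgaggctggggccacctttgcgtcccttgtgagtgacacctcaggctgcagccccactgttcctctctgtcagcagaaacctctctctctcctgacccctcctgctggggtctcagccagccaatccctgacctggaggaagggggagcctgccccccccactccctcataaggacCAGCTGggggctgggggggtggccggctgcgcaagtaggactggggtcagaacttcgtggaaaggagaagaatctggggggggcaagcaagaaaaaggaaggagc
Pvalb, chr15:78206351-78206650, minus strand, MEF2 consensus in capitals: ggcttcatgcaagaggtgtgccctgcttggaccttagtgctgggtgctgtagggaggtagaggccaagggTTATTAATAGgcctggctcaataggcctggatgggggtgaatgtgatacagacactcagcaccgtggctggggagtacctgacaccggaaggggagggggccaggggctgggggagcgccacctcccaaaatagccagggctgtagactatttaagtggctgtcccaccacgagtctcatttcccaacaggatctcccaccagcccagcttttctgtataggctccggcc
Casq2, chr3:102086165-102086464, plus strand, MEF2 consensus in capitals: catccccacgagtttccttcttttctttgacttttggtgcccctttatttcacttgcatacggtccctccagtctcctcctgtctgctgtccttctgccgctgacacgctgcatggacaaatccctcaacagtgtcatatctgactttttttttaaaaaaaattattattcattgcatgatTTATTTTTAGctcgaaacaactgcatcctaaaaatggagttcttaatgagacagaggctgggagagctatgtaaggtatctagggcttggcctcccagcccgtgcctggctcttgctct

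The CAGCTG began 123 bases before the start in Cacna1s, 195 before it in Casq1 and 55 before it in Atp2a1. The MEF2 match began 180 bases before the upstream start of Pvalb and 69 before that of Casq2. Ryr1 had neither motif in its window, and its levels ran with those of Cacna1s over the 12 libraries (Pearson's r = 0.990). Pln had a CAGCTG and gave r = 0.520 with Cacna1s (Spearman's rho = 0.685), with LE1 at 0 counts of Pln. Jph1 had no window, and whether the motif goes with shared variation was not tested.

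Library totals ran from 56042030 to 72540147 counts. Levels between libraries are given as CPM, counts divided by the library size after TMM adjustment, and levels between genes as TPM, which is corrected for gene length. The libraries differed in the level of muscle RNA. The muscle score, the mean log2 CPM of 12 muscle genes outside the members (such as Acta1, Ckm and Ttn), was 10.6 to 11.5 in VtA, 8.52 to 10.7 in VLNT and 6.61 to 11.5 in LE. LE4 was the top of the LE range, and the other 3 LE libraries scored 6.61 to 8.55. Summed keratinocyte markers, 14 genes that include Krt5 and Krt14, took 0.00355% to 0.905% of counts in VtA, 1.32% to 3.43% in VLNT and 0.00204% to 3.87% in LE, with the lowest values in LE4 and VtA1. LE1 stood apart in another way: mitochondrial genes took 0.433% of its counts, against 7.62% to 25.9% in the other 11 libraries. In whole tissue, fewer muscle cells and less of an RNA in each muscle cell cannot be told apart. The comparisons with LE are therefore given with all libraries, without LE4, without LE1 and without both.

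Per unit length the fast members dominated. Pvalb averaged 9031 TPM over the 12 libraries and Atp2a1 8803 TPM, and these neighbours were not separated, since Pvalb was the higher in 7 of 12 libraries. Casq1 followed at 1759 TPM, below Atp2a1 in all 12 libraries. Ryr1 averaged 252 TPM and Cacna1s 152 TPM, in that order in every library. Jph1 at 78.9 TPM and Atp2a2 at 77.4 TPM exchanged places from library to library, and so did Sln at 20.6 TPM and Casq2 at 11.0 TPM, each pair being ordered one way in 6 of 12. Pln was lowest, at 0.824 TPM. The 3 fast members made up 93.2% to 99.0% of the TPM of all members in every library, and the 4 slow members 0.126% to 4.996%. Together the 10 members took 0.269% of all TPM in LE2 and 3.48% in VtA2, the lowest and the highest library.

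**Figure D1:**
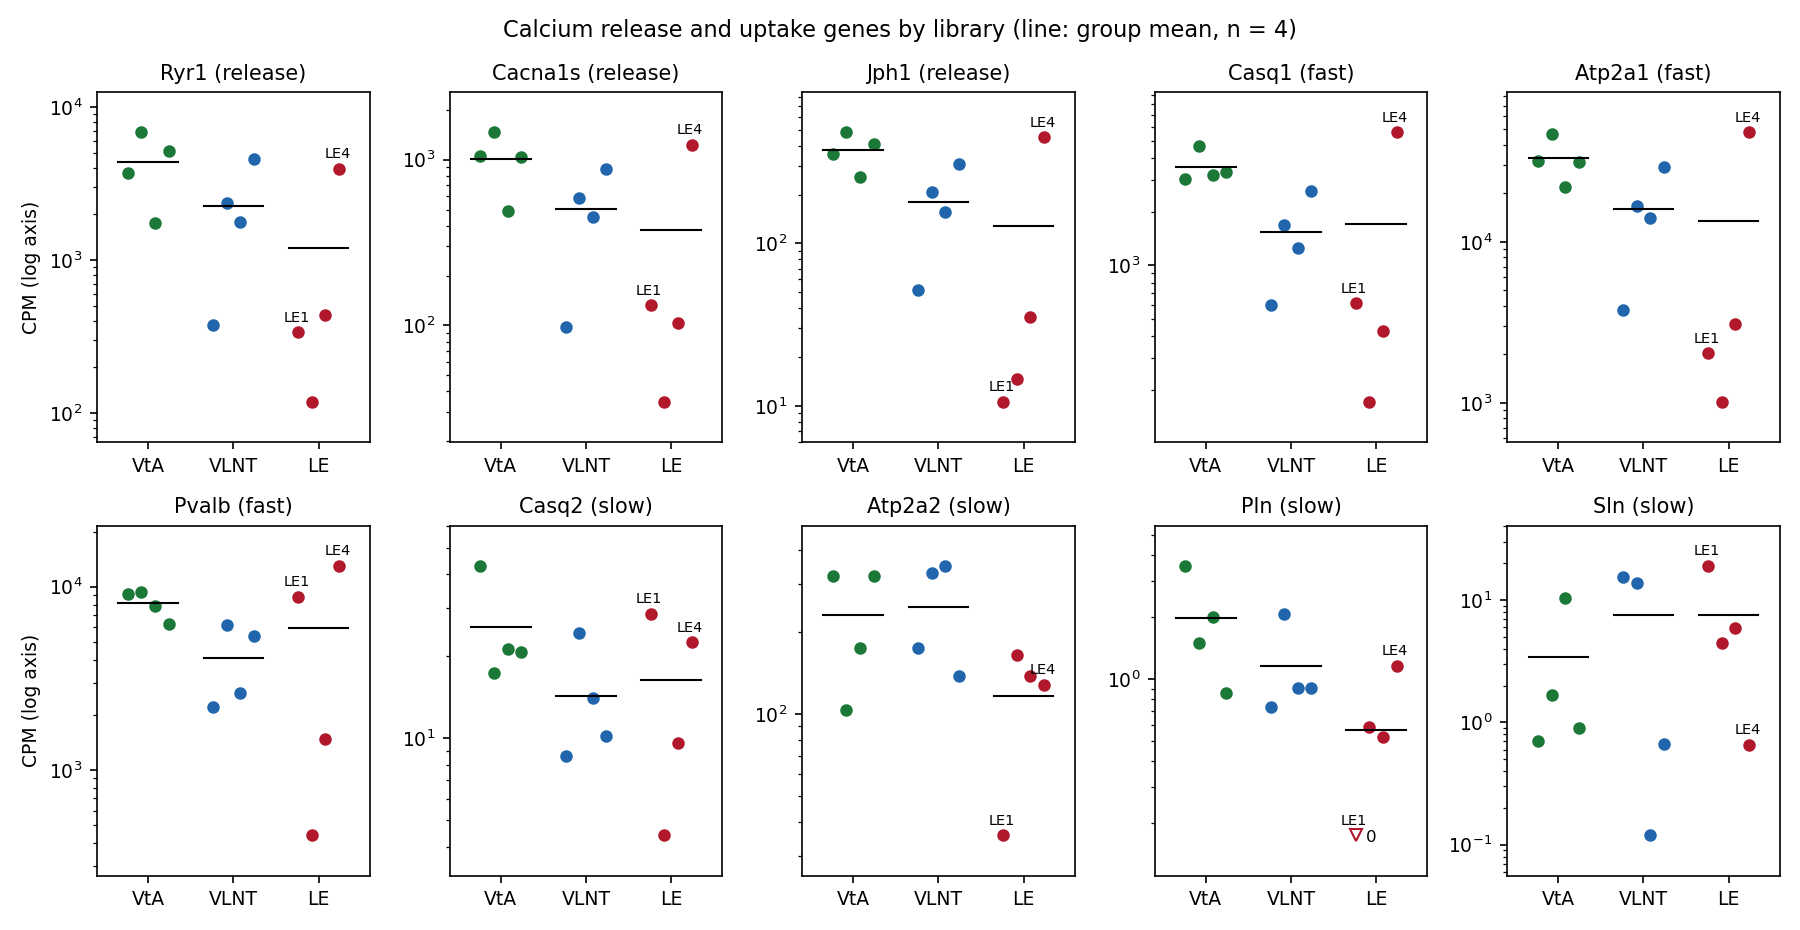
CPM on a log axis of each member in the 4 VtA, 4 VLNT and 4 LE libraries, 1 point per library, with the group mean as a line and LE1 and LE4 named. For Ryr1, Cacna1s, Jph1, Casq1 and Atp2a1, LE4 sits within or above the VtA points while LE1 to LE3 lie below them, and Pln was at 0 counts in LE1 (open triangle).

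The release channel and its voltage sensor were high in VtA and, apart from LE4, low in LE. Ryr1 stood at 3727, 6810.1, 1746 and 5116 CPM in VtA1 to VtA4, at 376, 2343, 1769 and 4577 CPM in VLNT1 to VLNT4, and at 338, 119, 435 and 3936 CPM in LE1 to LE4. The VtA values overlapped with VLNT and with LE4. Cacna1s had 1049.9, 1461, 493 and 1041 CPM in VtA, 97.8, 586, 451 and 879.6 CPM in VLNT and 132, 34.6, 103 and 1233 CPM in LE. Jph1 had 356, 483, 258 and 407 CPM in VtA, 51.3, 208, 156 and 309.6 CPM in VLNT and 10.6, 14.5, 35.3 and 452 CPM in LE. In each of the 3 genes LE4 lay among the VtA libraries and LE1 to LE3 lay below every VtA library.

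The fast store and pump genes behaved in the same way. Atp2a1 stood at 31781, 46628, 21996 and 31319.7 CPM in VtA1 to VtA4, at 3771, 16739.6, 13973 and 29257 CPM in VLNT1 to VLNT4, and at 2027, 1014, 3104 and 47771 CPM in LE1 to LE4. LE4 was the highest of all 12 libraries and LE2 the lowest. Casq1 had 3045, 4661, 3213 and 3336 CPM in VtA, 599.5, 1676, 1249 and 2601 CPM in VLNT, and 612, 171, 428 and 5570.0 CPM in LE. Pvalb had 9148, 9326, 7861 and 6272 CPM in VtA, 2222, 6150.2, 2647 and 5393 CPM in VLNT, and 8815, 441, 1486 and 12990.2 CPM in LE. Unlike Casq1 and Atp2a1, Pvalb was also at a VtA level in LE1.

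The slow members were low and spread within groups. Casq2 had 42.9, 17.4, 21.3 and 20.8 CPM in VtA, 8.58, 24.3, 14.1 and 10.2 CPM in VLNT, and 28.6, 4.402, 9.62 and 22.5 CPM in LE. VtA1 was highest, LE2 lowest, and all 3 groups overlapped. Atp2a2, whose product also pumps calcium in cells other than muscle, had 322, 103, 175 and 322 CPM in VtA, 174, 329, 349.9 and 138 CPM in VLNT, and 35.7, 164, 137 and 128 CPM in LE. Its lowest library was LE1. Sln, an inhibitor of the pump that is also made in developing muscle, had 0.705, 1.69, 10.3 and 0.893 CPM in VtA, 15.5, 13.9, 0.119 and 0.663 CPM in VLNT, and 19.0, 4.49, 5.90 and 0.655 CPM in LE. Its high and low libraries did not follow the groups.

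Pln had the lowest mean CPM of the members, although Sln was lower than Pln in VtA1, VLNT3, VLNT4 and LE4. Pln had 0.858 to 3.55 CPM in VtA, 0.735 to 2.07 CPM in VLNT and at most 1.16 CPM in LE. LE1 had 0 counts, which allows up to 0.0593 CPM at 3 counts, a limit for counting error only. Its values are uncertain, because Pln overlaps Cep85l, which held 16935 counts over the 12 libraries against 928 for Pln, and the strand setting of the counting is not stated in the sources used here. In the other overlapping pairs the member held nearly all counts: Rabep2, which overlaps Atp2a1, held 9395 counts against 14508918, Gm46085 held 1694 counts against 161332 for Jph1, and Gm17224 held 847 counts against 1591197 for Casq1.

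VtA against VLNT asks what the antibody adds to the transfer. The medians of the log2 fold change were 1.01 for the release members, 1.05 for the fast members and 0.33 for the slow members, against −0.07 for all genes tested. On log2(TPM + 1) they were 0.76, 0.82 and −0.24, against −0.30 for all genes, so the slow median differed in sign between the 2 fits. Casq1 averaged 3564 ± 741 CPM in VtA and 1532 ± 839 CPM in VLNT (SD, n = 4 each), a log2 fold change of 1.22 ± 0.96 (SE, adjusted p = 0.653, edgeR's quasi-likelihood test with Benjamini-Hochberg adjustment). Atp2a1 averaged 32931 ± 10183 CPM in VtA and 15935 ± 10487 CPM in VLNT, a log2 fold change of 1.05 ± 1.27. Pvalb gave 0.99 ± 0.93, Ryr1 0.94 ± 1.06, Cacna1s 1.01 ± 0.98 and Jph1 1.05 ± 1.03 on the same scale. The slow members gave 0.84 ± 0.55 for Casq2, −0.10 ± 0.53 for Atp2a2, 0.77 ± 0.91 for Pln and −1.15 ± 1.35 for Sln. The Sln value was −2.82 without VtA3 and −0.52 without VLNT1. Of the 10 members 8 were higher in VtA, against 46.7% of genes. No member was called at an adjusted p under 0.05, as 0% of the 19740 genes were, and 0 members and 1118 genes (5.66%) had an unadjusted p under 0.05. Of those 1118 genes, 60 were higher in VtA and 1058 lower. DESeq2 also called 0 members, against 0.633% of genes, and limma-voom with sample weights 0, against 18.3%. Casq1 and Pvalb were the 2 members whose VtA and VLNT CPM did not overlap, both higher, against 7.48% of genes higher without overlap. LE4 enters this comparison only through the filter, the TMM adjustment and the shared spread. Without LE4, 0 members and 0.0489% of genes were called, and 1 member, Casq1, and 17.1% of genes had an unadjusted p under 0.05. Without LE1 and LE4, 0 members and 0.019% of genes were called. On the TPM scale both overlapped: Casq1 ran from 1749.7 to 3254 TPM in VtA and from 659 to 2397 TPM in VLNT, and Pvalb from 9798 to 13729 TPM in VtA and from 4777 to 11484 TPM in VLNT.

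VtA against LE sets transfer with the antibody against lymphedema. The medians were 1.55 for the release members, 1.07 for the fast members and 0.82 for the slow members, against −0.11 for all genes, and 2.57, 1.99 and 0.52 on log2(TPM + 1), against −0.19. Ryr1 averaged 4349.9 ± 2145 CPM in VtA and 1207 ± 1824 CPM in LE, a log2 fold change of 1.85 ± 1.08 (adjusted p = 0.347, edgeR's quasi-likelihood test). Pln averaged 1.98 ± 1.15 CPM in VtA and 0.569 ± 0.475 CPM in LE, a log2 fold change of 1.79 ± 0.94 that had the lowest adjusted p of the members, 0.329 by the same edgeR test. Pvalb gave 0.46 ± 0.93, with 0.028 without LE2 and 1.17 without LE4. Sln gave −1.14 ± 1.35, with −2.81 without VtA3 and −0.11 without LE1. edgeR's test called 0 members, as it called 0% of genes, and 0 members had an unadjusted p under 0.05 where 3256 genes (16.5%) had. Of those 3256 genes, 600 were higher in VtA and 2656 lower. DESeq2 called 0 members, against 2.83% of genes. In VtA 9 of the 10 members were higher, against 45.6% of genes, and 0 were higher without overlap, against 1.43%.

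This comparison rested on LE4. Each library was left out in turn, and the fit without LE4 was picked out after seeing the data. LE4 stood far above the other LE libraries in Ryr1, Cacna1s, Jph1, Casq1 and Atp2a1, the members called without it. Their p-values without LE4 are therefore descriptive. Without LE4, edgeR's test called 6288 of 20431 genes (30.8%), of which 2911 were higher in VtA and 3377 lower, and 5 members, all higher in VtA. An unadjusted p under 0.05 was found for 6 members and 45.2% of genes. Jph1 rose by a log2 fold change of 4.18 ± 0.67 (adjusted p = 0.00607, edgeR), Atp2a1 by 3.98 ± 0.88 (adjusted p = 0.0114, edgeR) and Ryr1 by 3.84 ± 0.89 (adjusted p = 0.0130, edgeR). Cacna1s rose by 3.46 ± 0.76 (adjusted p = 0.0111, edgeR) and Casq1 by 3.12 ± 0.63 (adjusted p = 0.00873, edgeR). The other fast member, Pvalb, gave 1.17 ± 0.86 (adjusted p = 0.305, edgeR) and the slow members 0.83 ± 0.60 for Casq2, 0.99 ± 0.59 for Atp2a2, 2.34 ± 0.99 for Pln and −1.53 ± 1.35 for Sln. Without both LE1 and LE4 the count was 7 members, since Pvalb at 3.04 ± 0.72 and Casq2 at 1.82 ± 0.56 were added, against 32.1% of genes, in a setting chosen after seeing the data. limma-voom with sample weights, which gave LE1 and LE4 weights of 0.0983 and 0.104, called the same 7 members against 53.9% of genes. Without LE1 alone no gene was called (0%), and the medians were 1.17 for the release, 0.79 for the fast and 0.88 for the slow members. Single members then ran from −0.11 ± 1.44 for Sln to 1.54 ± 1.17 for Ryr1. The muscle score of LE4 was 11.5, and that of LE1, LE2 and LE3 was 8.55, 6.61 and 7.91.

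**Figure D2:**
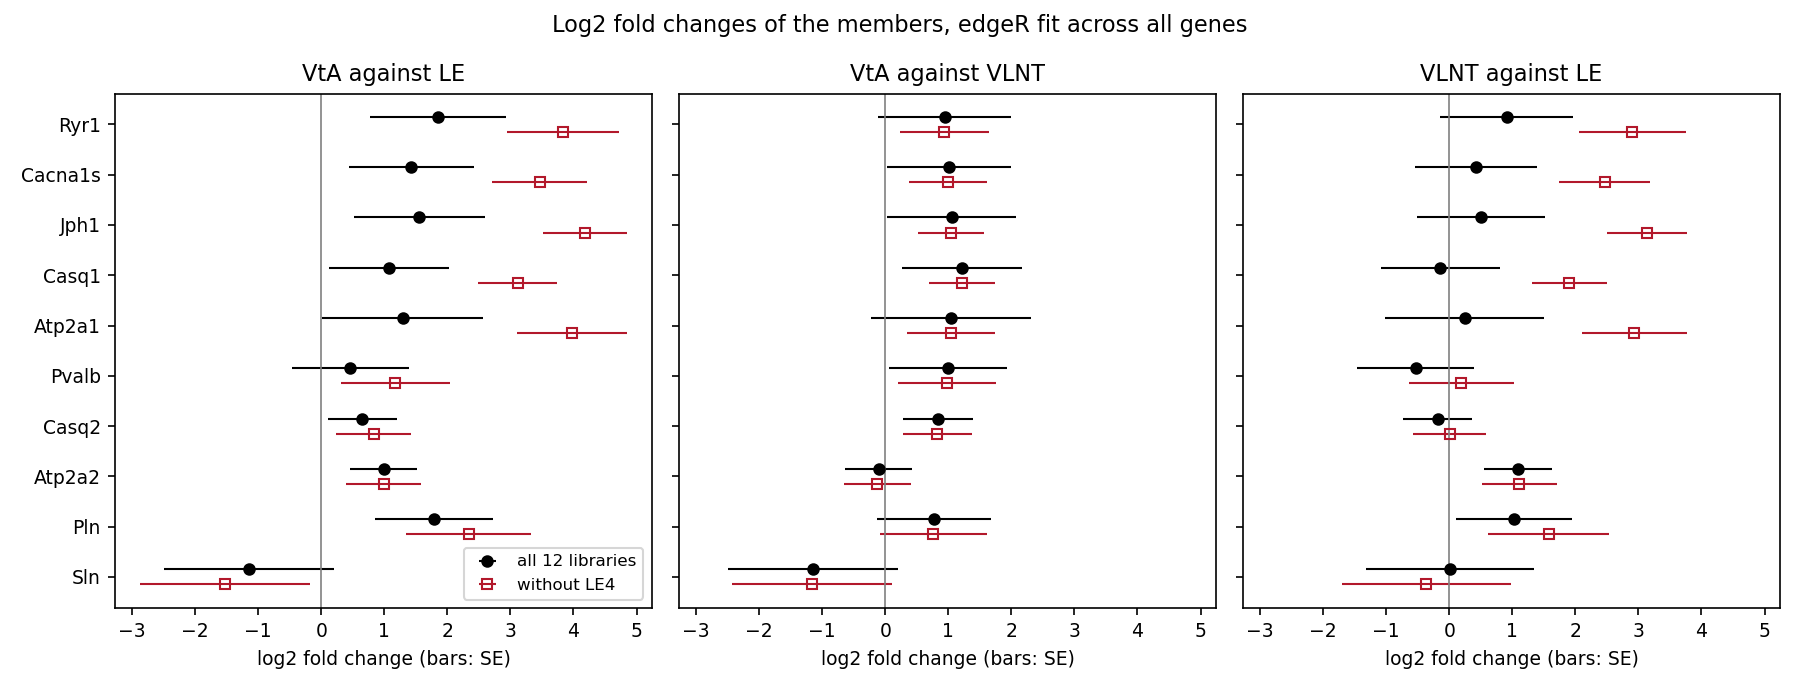
Log2 fold changes of the 10 members with their SE in the 3 comparisons, from edgeR's fit across all genes, with all 12 libraries (filled circles) and without LE4 (open squares). Without LE4 the release members, Casq1 and Atp2a1 lie between 3.12 and 4.18 for VtA against LE, while the values for VtA against VLNT are nearly the same in both fits.

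VLNT against LE sets the transfer alone against lymphedema. The medians were 0.50 for the release members, −0.15 for the fast members and 0.51 for the slow members, against 0.01 for all genes. On log2(TPM + 1) they were 1.83, 1.11 and 0.30, against 0.14, so the fast median differed in sign between the 2 fits. The mean log2 CPM of the fast members was also higher in VLNT (11.96) than in LE (11.01), so the sign did not depend on TPM alone. Atp2a2 averaged 248 ± 107 CPM in VLNT and 116 ± 55.8 CPM in LE, a log2 fold change of 1.09 ± 0.54 (adjusted p = 1.00, edgeR's quasi-likelihood test). edgeR's test called 0 members, as it called 0% of genes, and 0 members had an unadjusted p under 0.05 where 396 genes (2.01%) had. Of those 396 genes, 27 were higher in VLNT and 369 lower. DESeq2 called 0 members, against 0.00674% of genes. In VLNT 7 of the 10 members were higher, against 51.3% of genes, and 0 were higher without overlap, against 0.223%. Without LE1 alone, edgeR's test again called 0% of genes, with medians of 0.14 for the release, −0.28 for the fast and 0.70 for the slow members, and Sln gave 1.03 ± 1.48 where it gave 0.0063 ± 1.33 with all libraries. Without LE4 the release members gave 2.90 ± 0.85 for Ryr1, 2.46 ± 0.72 for Cacna1s and 3.14 ± 0.63 for Jph1, and Casq1 1.90 ± 0.59 and Atp2a1 2.93 ± 0.83. None of these passed in edgeR's test, the lowest adjusted p being 0.122, and 5 members had an unadjusted p under 0.05 where 3327 genes (16.3%) had. limma-voom with sample weights called those 5 members against 6.9% of genes. Without LE1 and LE4 no member passed, as 0% of genes did, and Pvalb gave 2.06 ± 0.68 and Casq2 1.00 ± 0.53. The 2 comparisons against LE share the LE libraries, so their values are not independent.

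The levels of the release and fast members ran with the muscle score, while Atp2a2 and Sln did not rise with it. Over the 12 libraries, which share the spread of library and tissue content, Pearson's r of log2 CPM with the score was 0.988 for Cacna1s, 0.985 for Casq1, 0.980 for Atp2a1, 0.967 for Ryr1 and 0.936 for Jph1. Pvalb gave 0.856, Casq2 0.713, Pln 0.541, Atp2a2 0.293 and Sln −0.503. Without LE2 and LE3, the libraries farthest from the median score, r was 0.979 for Cacna1s, 0.966 for Casq1 and 0.974 for Atp2a1, but 0.591 for Pvalb and 0.364 for Casq2, so these 2 relations were weaker over the other 10 libraries. With the muscle score as a covariate in edgeR's fit, the median log2 fold change of the members was −0.03 for VtA against VLNT, 0.06 for VtA against LE and 0.19 for VLNT against LE, with 0 members called and 0% of genes. The score is itself measured in these libraries, so the adjusted values are descriptive.

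**Figure D3:**
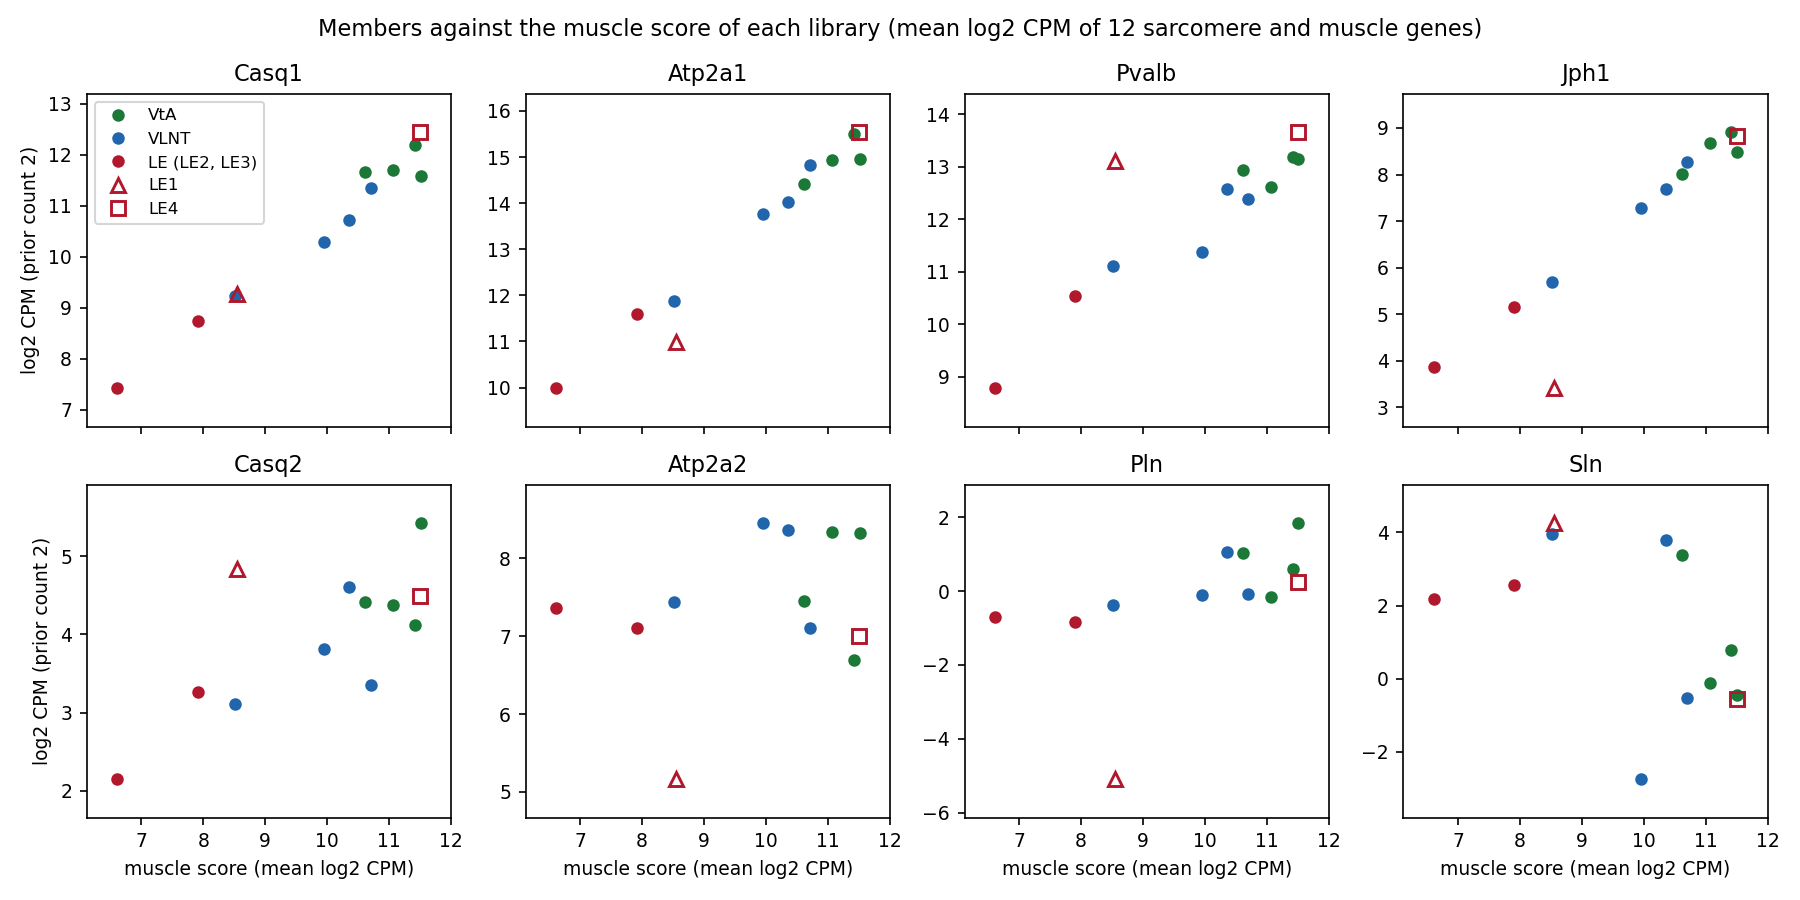
Log2 CPM of 8 members against the muscle score of each library, with LE1 as an open triangle and LE4 as an open square. Casq1, Atp2a1 and Jph1 run along the score, LE1 lies above the others of its score for Pvalb and below them for Jph1, and Atp2a2 and Sln show no rise with the score; the low Pln point is LE1, at 0 counts.

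The ratio of the slow to the fast form was taken within each library. The SERCA pair, Atp2a2 to Atp2a1, had log2 ratios of TPM of −7.62 ± 1.07 in VtA, −6.21 ± 1.41 in VLNT and −5.85 ± 2.47 in LE (SD, n = 4 each). As a share, Atp2a2 was 0.170% to 0.798% of Atp2a1 in VtA, 0.347% to 3.48% in VLNT and 0.209% to 11.8% in LE. The calsequestrin pair, Casq2 to Casq1, gave −7.64 ± 0.79 in VtA, −7.12 ± 0.90 in VLNT and −6.23 ± 1.52 in LE. None of the differences passed in 2-sided exact permutation tests of 4 against 4 libraries, where the smallest possible p is 0.0286. For VtA against LE the difference was −1.77 for the SERCA pair (p = 0.200, exact) and −1.41 for the calsequestrin pair (p = 0.143, exact). Without LE4 these were −2.79 and −2.13, the SERCA difference was −0.85 without LE2, and the calsequestrin difference was −0.96 without LE1. For VtA against VLNT the differences were −1.41 (p = 0.143, exact) and −0.52 (p = 0.343, exact). They ran from −2.06 without VLNT4 to −0.89 without VtA2 for the SERCA pair, and from −0.96 to −0.23 without the same libraries for the calsequestrin pair. For VLNT against LE the differences were −0.36 (p = 0.857, exact) and −0.89 (p = 0.343, exact), with −1.38 and −1.62 without LE4, and −0.57 and −0.44 without LE1. Adjusted over the 6 tests, the lowest p was 0.400 by the exact permutation tests. Without LE1 and LE4 the SERCA difference was −3.61 for VtA against LE and −2.20 for VLNT against LE, a setting of 4 against 2 libraries in which the exact test cannot pass the threshold. The summed CPM of 8 slow-fibre markers, such as Myh7 and Tnni1, was lowest in LE3 (45.6) and LE2 (58.9) and highest in VtA1 (3393). That of 10 fast-fibre markers, such as Myh4 and Tnni2, was 19285.5, 5456.8 and 154921 in that order. Atp2a2 was 3.26%, 11.8% and 0.798% of Atp2a1 there. Of the slow-fibre sum, Mybpc1 held 31.2 CPM in LE3, 43.9 CPM in LE2 and 1816 CPM in VtA1. These libraries were named as the ends of that sum, and the relation of the SERCA ratio to fibre markers over all 12 libraries was not tested. Atp2a2 is also transcribed in tissue other than muscle, and the part of such tissue in its ratio was not tested.

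**Figure D4:**
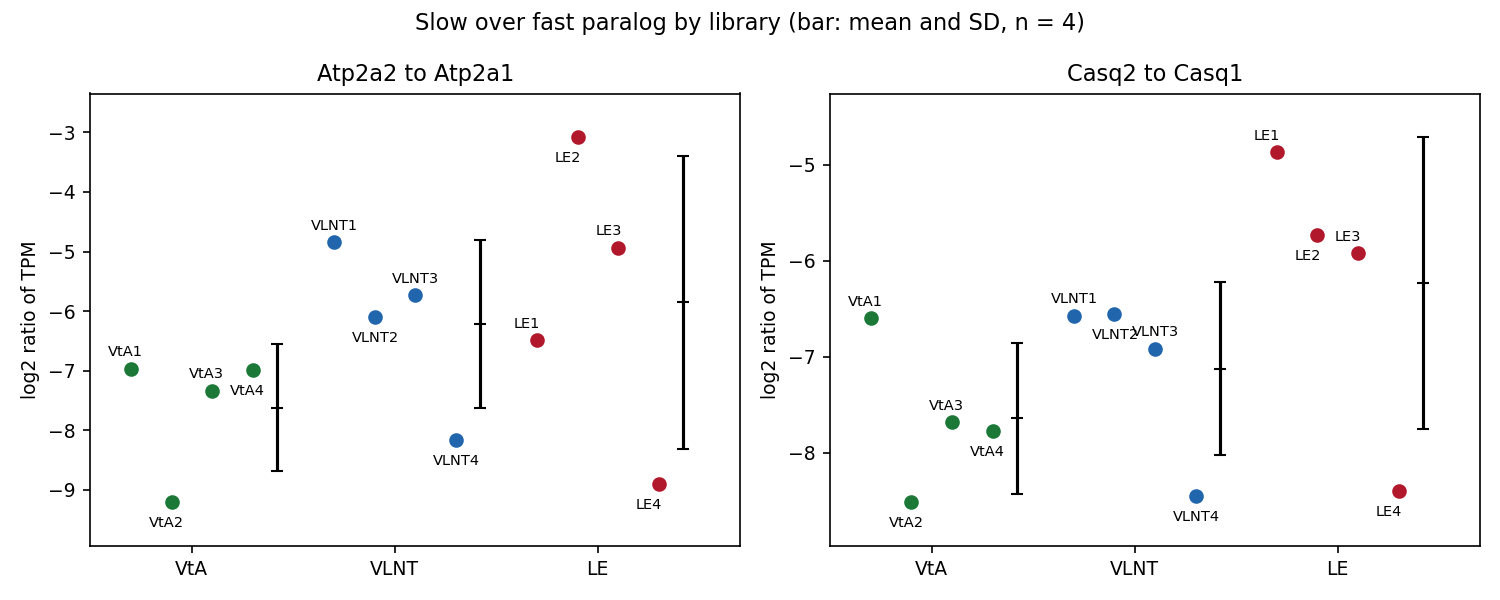
Log2 ratio of TPM of the slow to the fast form, Atp2a2 to Atp2a1 on the left and Casq2 to Casq1 on the right, with 1 named point per library and the mean and SD (n = 4) beside each group of VtA, VLNT and LE. LE4, VLNT4 and VtA2 lie at the low end of both panels and the groups overlap.

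Relative to the muscle score the mean of the 3 fast members had a narrower range over the 12 libraries than each of these members. Within single groups this did not always hold for the spread, since Casq1 had an SD of 0.096 in LE and Atp2a1 of 0.269 in VtA. The mean log2 CPM minus the score was 2.08 ± 0.29 in VtA, 2.08 ± 0.16 in VLNT and 2.36 ± 0.18 in LE (SD, n = 4 each), within 1.72 to 2.56 in all 12 libraries, where Pvalb alone ran from 1.41 to 4.55, Atp2a1 from 2.43 to 4.13 and Casq1 from 0.062 to 1.03. The release members gave −1.05 ± 0.39 in VtA, −1.05 ± 0.39 in VLNT and −1.45 ± 0.56 in LE, where LE1 was lowest at −2.27 and the mean without it was −1.17 ± 0.14 (SD, n = 3). The slow members varied more, at −7.65 ± 0.78 in VtA, −6.68 ± 1.502 in VLNT and −5.93 ± 2.095 in LE, and ran from −8.70 to −3.86. Without LE4, the lowest library, the slow mean in LE was −5.005 ± 1.20 (SD, n = 3). Slow minus fast was −9.73 ± 0.70 in VtA, −8.76 ± 1.43 in VLNT and −8.29 ± 2.20 in LE. No test was made of these differences.

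LE1 departed from the other libraries member by member. On the log2 scale relative to the muscle score, Jph1 stood at −5.14 in LE1 and at −3.04 to −2.40 in the other libraries, and Atp2a1 at 2.43 in LE1 and at 3.36 or more in the others. Pvalb stood at 4.55 in LE1 and at 1.41 to 2.63 in the others. The genes of the score did not move together in LE1, which limits these values. Of them, Neb was at 71.8 CPM in LE1 and at 221 CPM or more in the others. Tcap was at 3349 CPM in LE1 and at most 3160 CPM in the others. In the same library Myh3, the embryonic myosin heavy chain, was at 356 CPM against at most 22.0 CPM in the other libraries, and Myl4, an embryonic and atrial light chain, at 443 CPM against at most 25.2 CPM. Tnnt2, the cardiac and embryonic troponin T, was at 177 CPM against at most 4.64 CPM. Myh3 belongs to a list of 8 regeneration markers, whose mean log2 CPM was 4.66 in LE1 and at most 3.09 in the others. The summed CPM of that list was 993 in LE1, below 1203 in LE4 and 1094 in VtA2. Myh8, another myosin of that list, was at 560 CPM in LE1 and 1146 CPM in LE4. Myl4 and Tnnt2 belong to the list of 7 cardiac markers and made up most of its sum in LE1. Of the others, Tnni3, cardiac troponin I, was at 12.9 CPM in LE1 against at most 1.77 CPM elsewhere, and Myl7, an atrial light chain, at 5.69 CPM against at most 0.66 CPM. Myh6, the cardiac myosin heavy chain, was at 0.316 CPM in LE1 and at most 26.5 CPM elsewhere, Nppb was at most 2.48 CPM, and Nppa was at 0 in all 12 libraries. The summed cardiac list ran from 13.6 to 40.0 CPM in VtA, 5.60 to 32.7 CPM in VLNT and 10.4 to 639.9 CPM in LE. The part of these values in the levels of the slow members was not tested.

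The wider calcium pathway was read from 49 further genes in 4 lists: the release couplon, the reticulum's store and pump, the surface and tubule membrane, and calcium sensing. All 49 were tested, and with all libraries 0 were called in any comparison by edgeR's test, as were 0% of genes. For VtA against VLNT, 44 were higher and 5 lower, with a median log2 fold change of 0.88, where 46.7% of all genes were higher. For VtA against LE, 43 were higher and 6 lower, with a median of 0.89, where 45.6% of all genes were higher. An unadjusted p under 0.05 was found there for 4 of the 49 (8.16%), against 16.5% of all genes by the same edgeR test. Of the 4, Ryr3, Atp2b1 and Camk2d were higher and Fkbp1b lower. The 3256 genes that make up the 16.5% were 600 higher and 2656 lower, so the 2 shares differ in direction. For VLNT against LE, 32 were higher and 17 lower, with a median of 0.14, where 51.3% of all genes were higher. The medians of all genes were −0.07, −0.11 and 0.01 in that order. In settings chosen after seeing the data, edgeR's test without LE4 called 29 of the 49 for VtA against LE (59.2%, against 30.8% of genes), 27 higher and 2 lower, with a median of 1.48. Without LE1 and LE4 it called 36, all higher (73.5%, against 32.1% of genes), with a median of 2.22. Without LE1 alone it called 0, with a median of 0.75. For VLNT against LE it called 0 in each of these settings, with medians of 0.84, 1.43 and 0.0018 in the same order. The muscle score averaged 11.2 in VtA, 9.88 in VLNT and 8.64 in LE, and its part in these counts was not tested.

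Of each list, the 4 genes with the smallest p in any comparison are given for VtA against LE with all libraries. In the couplon list, Fkbp1b, a partner that steadies ryanodine receptors, averaged 0.588 ± 0.375 CPM in VtA and 1.81 ± 1.12 CPM in LE (SD, n = 4 each), a log2 fold change of −1.61 ± 0.68 (adjusted p = 0.294, edgeR). Ryr3, another release channel, averaged 1.25 ± 0.350 CPM in VtA and 0.540 ± 0.343 CPM in LE, a log2 fold change of 1.21 ± 0.51. Cacna2d1, an auxiliary subunit of the tubule channel, gave 1.76 ± 0.89 and Tmem38b, a counter-ion channel of the reticulum, 1.16 ± 0.61. In the store and pump list, Calr, the calcium-binding chaperone calreticulin, gave −0.91 ± 0.45, Hspa5, a chaperone of the reticulum, −0.59 ± 0.34, Atp2a3, the third SERCA pump, 0.50 ± 0.24 and Mrln, myoregulin, a small inhibitor of the pump, −0.26 ± 0.84. Mrln turned to 0.75 ± 0.82 without LE1. Without LE4 the 2 genes called lower were Fkbp1b at −1.93 ± 0.65 (adjusted p = 0.0435, edgeR) and Calr at −1.16 ± 0.40 (adjusted p = 0.0464, edgeR), and neither was called without both LE1 and LE4, at −1.57 ± 0.68 and −0.55 ± 0.29.

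In the membrane list, Atp2b1, a calcium pump of the surface membrane, averaged 96.4 ± 11.6 CPM in VtA and 52.1 ± 25.8 CPM in LE, a log2 fold change of 0.89 ± 0.40. Stim1, the reticulum's calcium sensor for store refilling, gave 1.27 ± 0.68, Dysf, the membrane repair protein dysferlin, 1.08 ± 0.65 and Atp2b3 1.46 ± 0.92. In the sensing list, Camk2d, a calmodulin-dependent kinase, averaged 65.2 ± 9.62 CPM in VtA and 39.6 ± 14.96 CPM in LE, a log2 fold change of 0.72 ± 0.30 with the lowest adjusted p of the 49 genes, 0.292 by edgeR. Mcu, the mitochondrial calcium uniporter, gave 1.01 ± 0.52, Ppp3cb, a catalytic subunit of calcineurin, 1.27 ± 0.70 and Ppp3ca, another, 0.77 ± 0.43. With all libraries none of these 16 values passed after adjustment. Without LE4, Tmem38b at 2.29 ± 0.39 and Ppp3cb at 2.65 ± 0.42 shared the lowest adjusted p of the 49, 0.00607 by edgeR.

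The genes most like 3 of the members were named by Pearson's r of log2 CPM over the 12 libraries, among 9582 genes with a mean of at least 10 CPM. For Atp2a1 they were Kcnj11, a potassium channel subunit, Ldb3, a Z-disc protein that is one of the muscle score's genes, and Rbfox1, a splicing factor, each with r = 0.998. For Casq2 they were Kcnj8 (r = 0.925) and the muscle cytochrome oxidase subunits Cox8b (r = 0.920) and Cox7a1 (r = 0.917). For Sln they were Caml (r = 0.876), Clec2d (r = 0.869) and Ssr4 (r = 0.810). These genes were picked for their likeness and vary over the same 12 libraries as the members.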

How the data were processed

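RNA from frozen mouse hindlimb was sequenced as stranded polyadenylated libraries, per the labels' protocols. The table deposited by the authors gives raw read counts per gene and library, and also FPKM and TPM, which the authors scaled for gene length and depth, per the file headers. FPKM was not used. HISAT2 2.1.0, StringTie 2.1.3b, Trimmomatic and bcl2fastq 2.20.0 are listed in the submitters' processing notes, with GRCh38 and mm10 both named. No source used here states the strand setting or the handling of multi-mapping reads.

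Counts were tested with edgeR 4.0.16 (R 4.3.3, TMM, default filter, 19740 genes, quasi-likelihood test), with 12 libraries in 1 fit of group means and Benjamini-Hochberg adjustment per comparison. Log2 CPM used a prior count of 2. The filter kept at least 99.87% of each library's counts. limma 3.58.1 (on TPM and as voom with sample weights) and DESeq2 1.42.0 were alternatives. The TPM ratios were tested with exact permutation tests. All tests were 2-sided, and the fit was tested on data simulated from the libraries' own means, sizes and spread. Over the 3 comparisons it called 0% to 2% of 2-fold changes in the right direction, 12% to 24% of 4-fold changes and 74% to 82% of 16-fold changes. A count of 0 called is therefore no evidence that 2-fold changes are absent. Of 18 pairs of libraries within groups, 0 were identical, with a chi-square of at least 118 per degree of freedom. Named genes were the 10 members, up to 4 of each pathway list with the smallest p, up to 3 of a tissue list, and 3 correlates of Atp2a1, Casq2 and Sln. The members, lists and rules were chosen with earlier results of these data known. Sequences are from RefSeq.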

Additional observations from a re-analysis of the deposited data

Results flagged for a closer look

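Within each group of 4 libraries the highest or lowest was set against the gap to its nearest neighbour, over 36 groups, and 9 stood out by Dixon's criterion; chance flags about 1 in 20 groups. For 5 members LE4 was far above the other LE libraries: Ryr1 at 3936 CPM, the next being 435 CPM, Cacna1s at 1233 against 132 CPM, Jph1 at 452 against 35.3 CPM, Casq1 at 5570.0 against 612 CPM and Atp2a1 at 47771 against 3104 CPM. LE4 also had the highest muscle score in LE, 11.5.

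The other 4 were single values. Casq2 in VtA was highest in VtA1, at 42.9 CPM, the next being 21.3 CPM. Pln in VLNT was highest in VLNT2, at 2.07 CPM, the next being 0.909 CPM. Sln in VtA was highest in VtA3, at 10.3 CPM, the next being 1.69 CPM. The log2 ratio of Atp2a2 to Atp2a1 was lowest within VtA in VtA2, at −9.20, the next being −7.34.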

How the results depend on the processing

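Calls moved with the setting. DESeq2 called 2 genes for VLNT against LE, 188 for VtA against VLNT and 839 for VtA against LE, and 0 members in each. limma-voom with sample weights called 1362, 3606 and 10639 genes in that order, and 5, 0 and 7 members. The 2 groups alone gave 1 gene for VtA against VLNT. Leaving out LE1 and LE4, chosen after seeing the data, gave 4 genes for VtA against VLNT, 6748 genes for VtA against LE and 7 members there. Leaving out 1 library at a time gave 0 to 10 genes for VtA against VLNT, 0 to 6288 genes and 0 to 5 members for VtA against LE, and 0 for VLNT against LE. The highest value came without LE4 in each case.

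Member directions held in 224 of 230 values for VtA against LE, 221 of 230 for VtA against VLNT and 191 of 230 for VLNT against LE. The muscle score covariate reversed Cacna1s (−0.19), Casq1 (−0.12), Atp2a1 (−0.034), Pvalb (−0.97), Casq2 (−0.33) and Sln (1.10) for VtA against LE, and Ryr1 (−0.13), Cacna1s (−0.13), Jph1 (−0.016) and Atp2a1 (−0.13) for VtA against VLNT, with Cacna1s (−0.051) for VLNT against LE; the cause was not tested. For VtA against VLNT, Sln also reversed with voom weights (0.53), and leaving out 1 library gave Atp2a2 −0.34 to 0.12.

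For VLNT against LE, Casq1 turned positive with TPM at either pseudocount (1.11 and 1.11), voom weights (2.06), without LE1 and LE4 (2.32) and with a keratinocyte covariate (1.58); Pvalb likewise (0.53, 0.53, 1.78, 2.06 and 0.073) and Casq2 (0.20, 0.21, 1.00, 1.00 and 0.073). Sln turned negative with DESeq2 (−0.067), DESeq2's size factors in edgeR (−0.079), the 2 groups alone (−0.0020), TPM (−0.59 and −0.85), voom weights (−2.25) and the keratinocyte covariate (−0.32). Leaving out 1 library gave Casq1 −0.56 to 1.90, Atp2a1 −0.23 to 2.93, Pvalb −0.94 to 0.19, Casq2 −0.57 to 0.23 and Sln −0.62 to 1.03, and the SERCA ratio −1.38 to 0.57, positive without LE2 or VLNT4.

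The labels share replicate numbers, but same-numbered libraries did not regularly deviate together (correlations of −0.43 to 0.56, and 2 of 12 libraries matched their own number best). The main fit therefore treated the libraries as unpaired. Since the libraries also differed in muscle RNA, this check cannot exclude a pairing. A replicate block called 0 genes in each comparison; it turned Casq1 (0.59) and Casq2 (0.052) positive for VLNT against LE and Atp2a2 (0.010) for VtA against VLNT, and the block's exact p for the ratios ran from 0.125 to 0.750. On log2(TPM + 1) the median of all genes for VtA against VLNT was −0.30, with −0.07 in the count fit. The biological coefficient of variation was 0.686 at 4 libraries a group, which limits the changes that could be called.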
